A study of Homo sapiens with 12 samples.

Results

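The AP-1 and immediate early genes studied here are 10 genes. They encode the AP-1 subunits FOS, FOSB, FOSL1, FOSL2, JUN, JUNB and JUND, the related factor ATF3, the early response protein IER2 and the transcription factor MYC. They were taken by gene name from a table of 22963 names, and all 10 were found. RNA was sequenced from 2 human liver cancer cell lines in 4 groups of 3 libraries. PLC/PRF5 hepatoma cells carried either an empty lentiviral vector (Vector) or the EGR1 coding sequence driven by a CMV promoter (EGR1). MHCC97H hepatocellular carcinoma cells were either parental (Mock) or labelled EGR1 knockout (EGR1_KO), a label that the study gave to clones grown from single cells after CRISPR/Cas9 editing. All cells were kept in DMEM with fetal bovine serum, and no stimulus is named in the labels. The labels call the 3 libraries of a group biological replicates. The study made 2 knockout clones, and the labels do not say which clone an EGR1_KO library came from. The p-values of that comparison thus measure a spread between libraries, which need not be a spread between clones.

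AP-1 is a dimer of basic leucine zipper proteins. JUN proteins pair with one another or with FOS proteins, whereas FOS proteins need a JUN partner, and the dimers bind the TPA response element or the related cyclic AMP response element. Serum and growth factors switch on immediate early genes such as FOS within minutes and without new protein synthesis. They act through serum response factor and its ETS partners and through CREB and ATF proteins. Most mRNAs of immediate early genes are short-lived because of AU-rich elements in the 3′ UTR. Not all of the genes studied here follow this course, and JUND is known for constitutive expression. EGR1, the gene manipulated in this study, is itself an immediate early gene. In liver, FOS and JUN are known for their rise during regeneration after loss of tissue, and MYC drives ribosome production and growth.

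EGR1 was examined first as the check of the labels. It stood at 1.97, 1.43 and 2.03 FPKM (fragments per unit of transcript length and of sequencing output) in the Vector libraries and at 56.3, 50.2 and 52.2 in the EGR1 libraries. In MHCC97H cells it stood at 20.2, 23.1 and 21.2 in the Mock libraries and at 35.2, 50.3 and 32.9 in the libraries labelled EGR1_KO. The transcript was thus higher, not lower, under the knockout label, by 0.83 on the log2 scale (adjusted p = 0.00126, limma) and by 0.47 after a correction for transcript GC content and length (adjusted p = 0.0429). A CRISPR edit need not remove the mRNA, so this level does not tell whether the protein was lost. The study reports that it checked its knockout clones by western blot and DNA sequencing. Total FPKM ranged from 376335 to 437652 per library. Read numbers cannot be recovered from FPKM, and no counting error is given. The 9 hepatocyte markers summed to between 1770 and 1911 FPKM in Vector and between 2667 and 3626 in EGR1 libraries, and 8 of the 9 had a mean of at least 1 FPKM in each of these groups. They summed to 14.0 to 19.2 in Mock and 43.3 to 48.4 in EGR1_KO libraries, where 4 and 5 of the 9 had a mean of at least 1 FPKM. Markers of the tissue of origin were thus low in MHCC97H but not absent, with HNF4A at 9.64 in Mock and 7.91 in EGR1_KO libraries. Of the 4 tested in MHCC97H, 3 were higher in EGR1_KO libraries and 0 lower (34.8% and 31.5% of all genes tested). ALB was among the 3 (15.2 against 0.885 FPKM in Mock). APOB, not tested, went from 1.27 in Mock to 0.150 in EGR1_KO libraries. SERPINA1 made up most of the sums in PLC/PRF5, at 1372 in Vector and 2580 in EGR1 libraries. Of the 8 hepatocyte markers tested in PLC/PRF5, 4 were higher with EGR1 and 1 lower (19.2% and 10.4% of all genes tested). The largest rise was that of APOA1, at 3.18 in Vector and 113 in EGR1 libraries, and TF was the lower one, at 112 and 81.6. The 3 epithelial keratins summed to between 1563 and 2908 in all 12 libraries.

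Markers of other cell types also moved with the comparisons. The 4 leukocyte markers summed to at most 39.4 FPKM in PLC/PRF5 libraries, to 26.9 to 30.6 in Mock and to 52.7 to 58.0 in EGR1_KO libraries. CD68, at 28.5 in Mock and 53.8 in EGR1_KO libraries, made up most of this sum, while PTPRC, the defining marker, was at or near 0. The 4 fibroblast markers summed to at most 1.04 in PLC/PRF5 libraries, to 7.47 to 10.9 in Mock and to 1.00 to 1.51 in EGR1_KO libraries, mostly from LUM. The 3 endothelial markers summed to between 1.503 and 6.53 in all libraries. The part of these differences in the results was not tested.

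Short stretches of the promoters are shown because they hold the motifs that these genes have in common, the sites that CREB, ATF and AP-1 proteins can bind. The 250 bases before the RefSeq start on GRCh38.p14 were searched on both strands. A window was held for 8 of the 10 genes, all but FOSL1 and MYC, and ATF3 had 2. The pentamer TGACG, the core of the cyclic AMP response element, was found in 7 of these 8 genes and in 21.2% of 35116 promoters of the same length. The octamer TGACATCA, a variant of both response elements, was found in JUN and ATF3 and in 2.38% of all promoters. The whole palindrome TGACGTCA, which contains TGACG, was found in JUND and in 1.65% of promoters. The TPA response element TGACTCA and the EGR1 motifs GCGTGGGCG and GCGGGGGCG were found in 0 of the 8 genes, against 4.20% and 5.37% of promoters. These are matches of letters and not measured binding. Each stretch below runs 5′ to 3′ along the gene's strand with the motif in capitals, and CGTCA is TGACG on the opposite strand.
FOS, chr14:75278752-75278781, plus strand: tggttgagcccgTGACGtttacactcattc
FOSB, chr19:45467924-45467953, plus strand: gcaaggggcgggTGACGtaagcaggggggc
FOSL2, chr2:28392780-28392809, plus strand: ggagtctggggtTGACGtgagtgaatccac
JUN, chr1:58784096-58784125, minus strand: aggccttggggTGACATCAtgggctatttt
JUNB, chr19:12791337-12791366, plus strand: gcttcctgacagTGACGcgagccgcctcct
JUND, chr19:18281804-18281833, minus strand: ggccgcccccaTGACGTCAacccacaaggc
ATF3, chr1:212565273-212565302, plus strand: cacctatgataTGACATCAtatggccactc
IER2, chr19:13150259-13150288, plus strand: cacccccgccccCGTCAcgccaccatcgag
In FOS, FOSB, FOSL2 and JUN the motif began 64, 60, 66 and 67 bases before the start site, and in the other 4 genes it lay farther upstream. For comparison, the EGR1 promoter held 2 CArG boxes, the core of the serum response element, in the same window, a motif found in 1.16% of promoters. No CArG box was found in the 8 genes. Bases farther upstream were not searched, so a more distant element would be missed. A match in EGR1 is given here because EGR1 was the manipulated gene.
EGR1, chr5:138465386-138465415, plus strand: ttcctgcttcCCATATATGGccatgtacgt

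The 10 genes also shared features of the transcript. JUN, JUNB, JUND and IER2 had a single exon, 4 of 10 genes, whereas 3.94% of 17450 protein-coding genes of GENCODE release 29 did. The AU-rich pentamer ATTTA occurred 9 times in the 3′ UTR of FOSL2, 5 times in FOS, 4 times in MYC and 3 times each in ATF3, JUN and FOSB. It occurred 2 times in JUNB, once each in FOSL1 and JUND and 0 times in IER2. At least 3 copies were thus present in 6 of the 10 genes and in 38.6% of the protein-coding genes. The GC content of every one of the 10 transcripts was above the median of 49.4%, from 50.8% in ATF3 to 60.0% in FOSL1, 61.7% in IER2, 64.9% in JUNB and 69.7% in JUND. This bears on the comparisons below, because the change of all genes followed GC content, and many changes are therefore also given after a correction for transcript GC content and length.

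Steady-state levels differed widely within the group. JUND, JUNB and IER2 were the most abundant in PLC/PRF5 Vector cells, at 82.7 ± 7.25, 69.2 ± 6.08 and 45.2 ± 1.11 FPKM (mean ± SD, n = 3), whereas FOS and FOSB were at 1.23 ± 0.168 and 1.01 ± 0.0418. In MHCC97H Mock cells MYC led at 94.0 ± 2.01 FPKM, followed by JUND at 64.1 ± 4.02. IER2 at 38.2 ± 5.81, JUN at 36.5 ± 0.913 and FOSL1 at 32.2 ± 0.615 came next, and FOSB was lowest at 0.367 ± 0.144. IER2 and JUN in Mock cells did not differ beyond their spread.

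**Figure D1:**
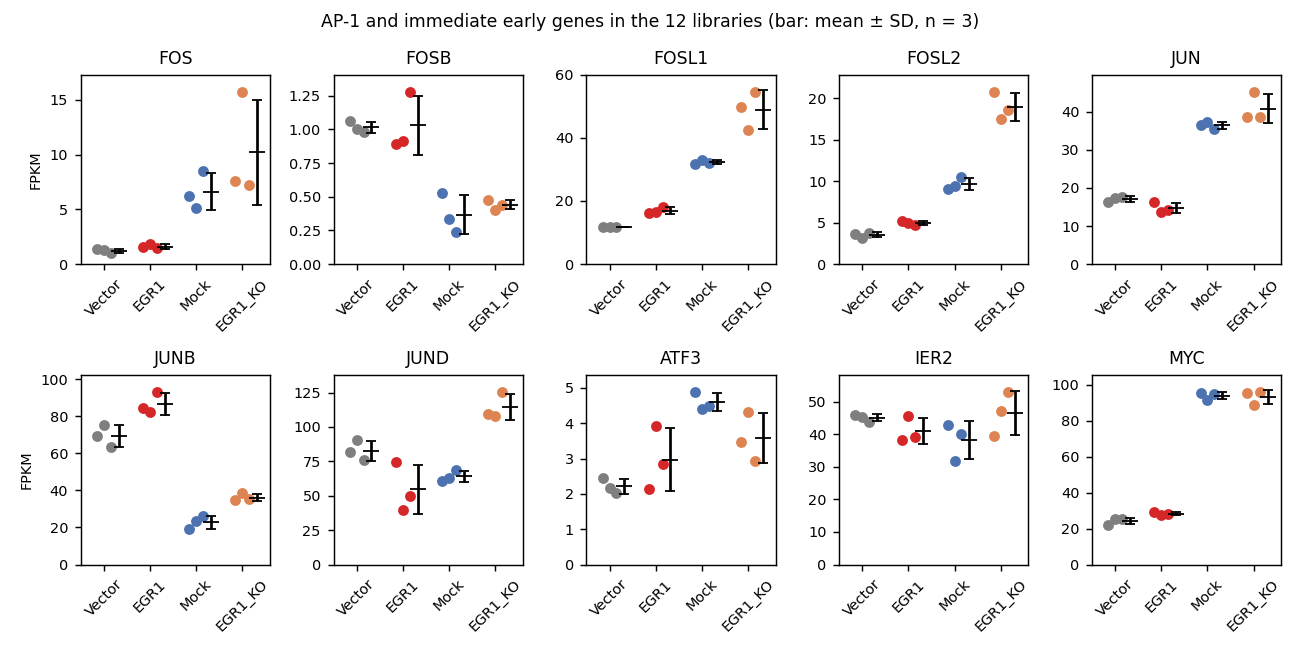
FPKM of each gene (linear axes from 0, a scale per gene) in the 3 libraries of Vector and EGR1 (PLC/PRF5) and of Mock and EGR1_KO (MHCC97H), with points for libraries in replicate order and black bars for mean ± SD. FOSL1 lay between 11.7 and 11.9 in Vector and between 16.1 and 18.1 in EGR1 libraries, and MYC lay between 22.1 and 29.04 in all PLC/PRF5 libraries and between 88.9 and 95.9 in all MHCC97H libraries.

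The first comparison asked how the genes stood when EGR1 was overexpressed in PLC/PRF5 cells. The FOS-related genes FOSL1 and FOSL2 and the JUN-related gene JUNB were higher in EGR1 cells, and JUND was lower, whereas FOS, FOSB, JUN, ATF3, IER2 and MYC did not pass the test. The changes were small, at most 1.44-fold upward. Of the 10 genes, 3 were called higher, against 19.2% of the 11671 genes tested, and 1 lower, against 10.4%, so that 4 of 10 stood beside 29.6% called in either direction. After the GC and length correction 3 were higher and 0 lower, and 34.8% of all genes were called, 16.7% higher and 18.1% lower. The groups did not overlap for 6 of the 10, against 47.7% of all genes.

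FOSL1, which encodes FRA-1, a FOS protein without a transactivation domain, is annotated at chr11:65892049-65900573 (GRCh38, minus strand). It stood at 11.7, 11.9 and 11.7 FPKM in Vector and at 16.1, 16.6 and 18.1 in EGR1 libraries. The groups were well apart and the rise was 1.44-fold, or 0.49 on the log2 scale (SE 0.08, adjusted p = 0.00410) and 0.56 after the GC and length correction (adjusted p = 4.33e-04). FOSL2, which encodes FRA-2 and is annotated at chr2:28392448-28417312 (plus strand), stood at 3.596, 3.19 and 3.798 in Vector and at 5.18, 4.96 and 4.77 in EGR1 libraries. Its log2 fold change was 0.40 (SE 0.10, adjusted p = 0.0159) and 0.35 after the correction (adjusted p = 0.01001), and the call was lost without EGR1 replicate 2 (adjusted p = 0.0610). A transcript antisense to FOSL2 and a second one inside its intron are annotated, and whether counting used strand is not given in the sources used here.

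FOS itself was low, at 1.36, 1.29 and 1.04 FPKM in Vector and 1.54, 1.83 and 1.48 in EGR1 libraries. The groups did not overlap, but the log2 difference of 0.23 did not pass the test (adjusted p = 0.138), with a 95% interval from -0.02 to 0.48. FOSB, which like FOS carries a transactivation domain, stood near 1 FPKM in both groups and differed by 0.01 on the log2 scale (adjusted p = 0.976). It lies wholly within ERCC1 on the opposite strand, at 40.7 FPKM in Vector and 38.1 in EGR1 cells.

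JUNB, a JUN protein that is the weaker activator of the family, was at 69.1, 75.3 and 63.2 FPKM in Vector and at 84.5, 82.1 and 93.0 in EGR1 libraries. All EGR1 libraries were above all Vector libraries, with a log2 fold change of 0.32 (SE 0.10, adjusted p = 0.0355) and 0.46 after the correction (adjusted p = 9.94e-04). The uncorrected call was lost when Vector replicate 1 or 3 or EGR1 replicate 2 or 3 was left out, with adjusted p between 0.0706 and 0.137. JUNB lies wholly within HOOK2 on the opposite strand, and HOOK2 was at 5.43 FPKM in Vector and 5.02 in EGR1 cells. JUND, the JUN protein known for constitutive expression, was at 81.7, 90.4 and 75.96 in Vector and at 74.6, 40.0 and 49.6 in EGR1 libraries. EGR1 replicate 1 thus lay just under the lowest Vector library while the other two lay far below. The log2 fold change of JUND was -0.63 (SE 0.20, adjusted p = 0.0389) and -0.38 after the correction, where it did not pass (adjusted p = 0.0869). Leaving out EGR1 replicate 1 gave -0.87 (adjusted p = 0.00337), and leaving out any other library ended the call, with adjusted p between 0.0737 and 0.114. JUN stood at 16.3, 17.4 and 17.7 in Vector and at 16.3, 13.7 and 14.3 in EGR1 libraries, and its log2 difference of -0.20 did not pass (adjusted p = 0.132).

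ATF3, a stress-induced repressor or activator that pairs with JUN proteins, was at 2.44, 2.18 and 2.02 FPKM in Vector and at 2.14, 3.91 and 2.86 in EGR1 libraries. The groups overlapped, and the log2 difference of 0.28 did not pass (adjusted p = 0.202), with an interval from -0.08 to 0.64. IER2 differed by -0.14 (adjusted p = 0.266) and by -0.07 after the correction. MYC stood at 22.1, 25.1 and 25.3 in Vector and at 29.04, 27.6 and 28.1 in EGR1 libraries. Its groups did not overlap, and the log2 difference of 0.22 missed the threshold (adjusted p = 0.0862, and 0.0525 after the correction).

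The second comparison set the libraries labelled EGR1_KO against parental MHCC97H cells. The edit, the growth from single cells and any library batch cannot be told apart in it. FOSL1, FOSL2, JUNB and JUND were higher in the EGR1_KO libraries as deposited, by 1.52-fold to 1.96-fold, and none of the tested genes was lower. FOS, JUN, ATF3, IER2 and MYC did not pass the test, and FOSB, below a mean of 1 FPKM, was not tested. The 4 calls of 9, all higher, stood beside 66.3% of 11577 genes called, 34.8% higher and 31.5% lower, and 6 of the 9 had groups that did not overlap, against 71.8% of all genes. After the GC and length correction the result differed: FOSL2 alone was higher, ATF3 and MYC were lower, and 47.1% of all genes were called, 24.6% higher and 22.4% lower.

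FOSL2 was the gene that rose under both treatments of the values. It stood at 9.01, 9.46 and 10.5 FPKM in Mock and at 20.8, 17.5 and 18.5 in EGR1_KO libraries, so that every EGR1_KO library exceeded every Mock library by a wide margin. The log2 fold change was 0.90 (SE 0.10, adjusted p = 1.15e-04) and 0.73 after the correction (adjusted p = 7.08e-05), and the call held in all 17 settings tried. FOSL1 stood at 31.7, 32.9 and 32.1 in Mock and at 49.8, 42.4 and 54.6 in EGR1_KO libraries. Its log2 fold change of 0.58 (SE 0.10, adjusted p = 0.00118) became -0.06 after the correction (adjusted p = 0.545). FOS was at 6.24, 5.13 and 8.49 in Mock and at 7.64, 15.7 and 7.24 in EGR1_KO libraries. The groups overlapped and replicate 2 of EGR1_KO stood apart, and the log2 difference of 0.50 did not pass (adjusted p = 0.121), and was 0.17 without that library and 0.22 after the correction (adjusted p = 0.540). FOSB stood between 0.241 and 0.524 in Mock and between 0.405 and 0.472 in EGR1_KO libraries. ERCC1, which covers FOSB on the opposite strand, was at 18.5 in Mock and 38.4 in EGR1_KO libraries (log2 fold change 1.02, and 0.43 after the correction).

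JUND stood at 60.9, 62.8 and 68.6 FPKM in Mock and at 110, 108 and 125 in EGR1_KO libraries. This was a 1.78-fold rise as deposited, with a log2 fold change of 0.82 (SE 0.09, adjusted p = 1.12e-04), and it was 0.05 after the correction (adjusted p = 0.437). JUNB stood at 19.1, 23.3 and 26.0 in Mock and at 34.6, 38.4 and 35.3 in EGR1_KO libraries. Its log2 fold change of 0.65 (SE 0.12, adjusted p = 0.00122) became -0.08 after the correction (adjusted p = 0.475). HOOK2, which surrounds JUNB, changed by 0.35 (adjusted p = 0.0195) at 3.83 and 5.15 FPKM, and by -0.24 after the correction (adjusted p = 0.117). JUN stood at 36.4, 37.4 and 35.6 in Mock and at 38.7, 45.2 and 38.5 in EGR1_KO libraries. Its groups did not overlap, but the log2 difference of 0.15 did not pass (adjusted p = 0.160) and was -0.25 after the correction (adjusted p = 0.0618).

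ATF3 stood at 4.88, 4.41 and 4.49 FPKM in Mock and at 3.48, 4.32 and 2.92 in EGR1_KO libraries, lower in every EGR1_KO library than in any Mock library. The log2 difference of -0.30 missed the threshold as deposited (adjusted p = 0.0651). It passed at -0.49 after the correction (adjusted p = 0.0144), at -0.42 with all libraries scaled to a common total (adjusted p = 0.0235) and at -0.42 without EGR1_KO replicate 2 (adjusted p = 0.0165). MYC stood at 95.6, 91.8 and 94.6 in Mock and at 95.5, 88.9 and 95.9 in EGR1_KO libraries. Its difference was -0.01 as deposited (adjusted p = 0.924), with a 95% interval from -0.19 to 0.17, and -0.34 after the correction (adjusted p = 0.00162). IER2 stood at 42.8, 31.7 and 40.1 in Mock and at 39.6, 47.3 and 53.0 in EGR1_KO libraries. Its difference of 0.28 did not pass (adjusted p = 0.0975) and was -0.30 after the correction (adjusted p = 0.108), though it passed at 0.39 as deposited when EGR1_KO replicate 1 was left out (adjusted p = 0.0454).

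The correction moved these values because the change of a gene followed its GC content in both lines and in opposite directions. Across genes, which are not independent replicates, Spearman's rho between transcript GC content and log2 fold change was -0.44 over 10994 genes in PLC/PRF5 and 0.77 over 10969 genes in MHCC97H. GC content and length together described 18.0% of the variance in PLC/PRF5 and 54.1% in MHCC97H. The correction takes out any change that runs with GC content, whether it arose in the cells or in the library, and these cannot be told apart here. FOSL1 and JUNB lay above the trend in PLC/PRF5 and close to it in MHCC97H, and FOSL2 lay above it in both.

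**Figure D2:**
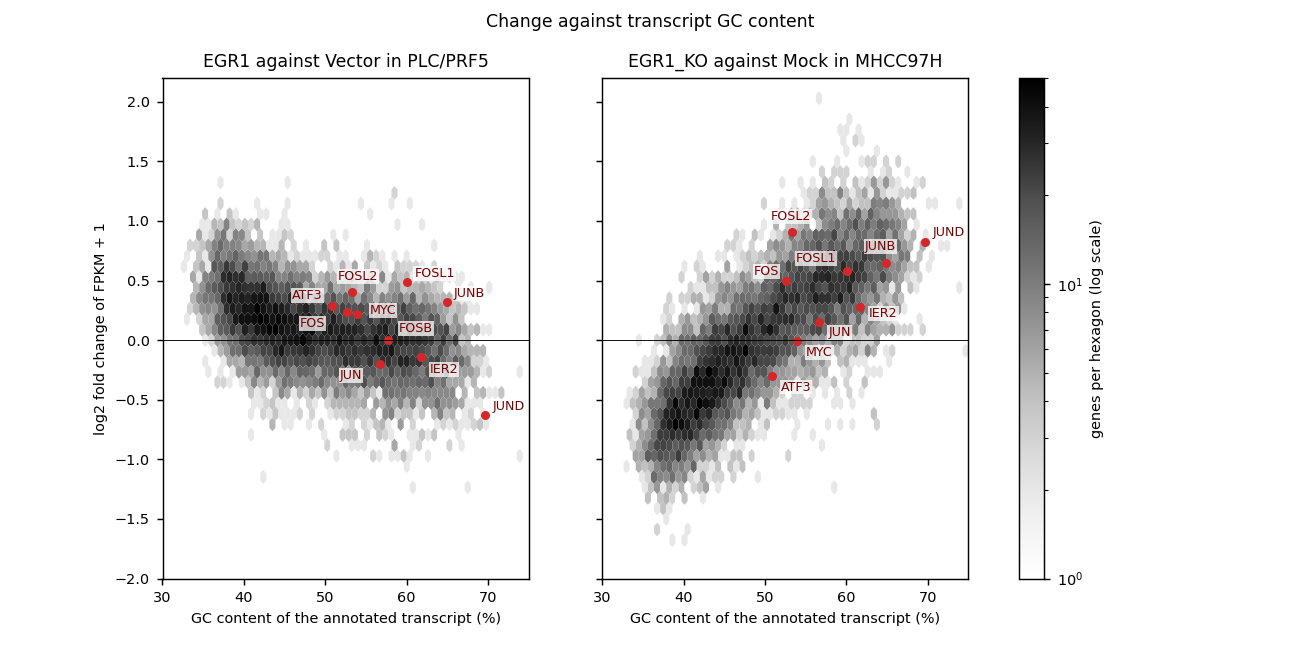
Log2 fold change of FPKM + 1 (vertical axes) against GC content of the annotated transcript (horizontal axes) for all genes tested, as grey hexagons shaded by gene number on a log scale, with the members as red points, for EGR1 against Vector and EGR1_KO against Mock. Genes beyond the axes are not drawn. The cloud falls with GC content in PLC/PRF5 (rho -0.44) and rises in MHCC97H (rho 0.77), where JUND at 69.7% GC lies within it and FOSL2 at 53.3% GC lies above it.

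The third comparison set the control groups of the lines side by side, parental MHCC97H against PLC/PRF5 with the empty vector. The line, the vector and any library batch cannot be told apart in it, and it shares its Vector and Mock libraries with the comparisons above. FOS, FOSL1, FOSL2, JUN, ATF3 and MYC were higher in MHCC97H, JUNB and JUND were lower, and IER2 did not pass. The 8 calls of 9 tested genes stood beside 79.8% of 12046 genes called, 38.8% higher and 40.9% lower, and the groups did not overlap for 9 of 9, against 81.0%. After the correction 7 were higher and 1 lower, and 81.5% of all genes were called, 39.5% higher and 42.0% lower.

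FOS showed the largest ratio of the group means, 5.39-fold, from 1.23 FPKM in Vector to 6.62 in Mock, with a log2 fold change of 1.75 (SE 0.16, adjusted p = 1.01e-05). MYC was 3.88-fold higher, with a log2 fold change of 1.92 (adjusted p = 7.43e-08). FOSL1 and FOSL2 were 2.74-fold and 2.73-fold higher, and JUN and ATF3 were 2.13-fold and 2.08-fold higher. All 6 of these genes were called in each of the 17 settings. JUNB went the other way, at 69.2 in Vector and 22.8 in Mock, with a log2 fold change of -1.57 (adjusted p = 3.49e-06) and -1.05 after the correction. JUND was lower by a log2 fold change of -0.36 as deposited (adjusted p = 0.00516) and higher by 0.17 after the correction (adjusted p = 0.00935), so its direction between the lines was not settled. IER2 differed by -0.25 as deposited (adjusted p = 0.0722) and by 0.10 after the correction (adjusted p = 0.417), and the deposited difference passed at -0.33 without Mock replicate 1 (adjusted p = 0.0275). FOSB was at 1.01 in Vector and 0.367 in Mock, and its mean over the 6 libraries was below the 1 FPKM that the test required. When all genes above 0 FPKM were admitted, its log2 difference of -0.56 was called (adjusted p = 0.00127). ERCC1, which covers FOSB on the opposite strand, was at 40.7 in Vector and 18.5 in Mock.

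**Figure D3:**
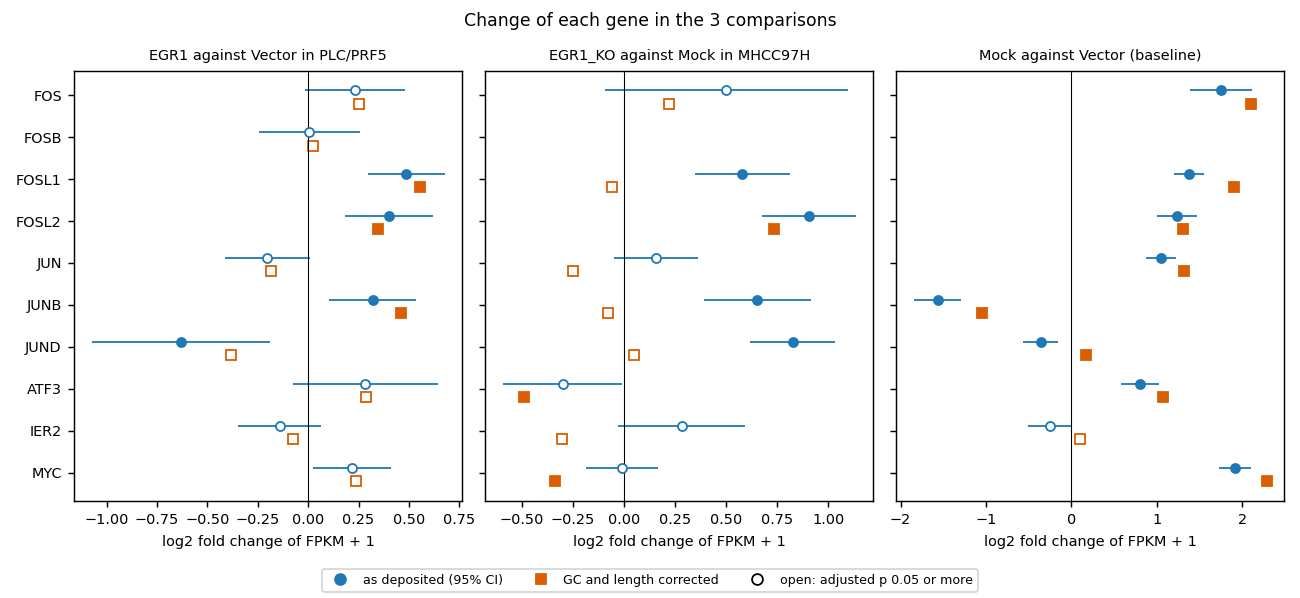
Log2 fold change of FPKM + 1 of each gene in the 3 comparisons (horizontal axes, a scale per panel), as deposited (circles with 95% confidence intervals) and after GC and length correction (squares), filled where the limma adjusted p was below 0.05. FOSL2 is filled on the right of 0 in all panels, and FOSL1, JUNB and JUND move to near 0 after correction in the EGR1_KO panel.

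Because JUN and FOS proteins compete for partners, the make-up of each family was described as shares of its summed FPKM. FPKM are per length, but the libraries were treated with a nuclease that can compress abundant transcripts. Shares of different genes are therefore only roughly comparable. FOSL1 made up most of the FOS family in every group, with 67.1% ± 1.19 in Vector, 68.9% ± 1.47 in EGR1, 66.1% ± 3.19 in Mock and 62.2% ± 5.99 in EGR1_KO libraries (SD, n = 3). FOSL2 held 20.1%, 20.3%, 19.7% and 24.1% in the same order, FOS 6.996%, 6.60%, 13.5% and 13.1%, and FOSB 5.77%, 4.17%, 0.758% and 0.560%. The share of FOSL2 was close in Vector, EGR1 and Mock libraries. It was 22.95% to 26.4% in EGR1_KO libraries, each above the highest library of the other groups (21.8%, EGR1 replicate 1). FOS had a larger and FOSB a smaller share in MHCC97H. The sum of the family went from 17.6 FPKM in Vector and 24.6 in EGR1 to 48.9 in Mock and 78.5 in EGR1_KO libraries. The JUN family was divided differently in the lines. JUNB held 40.9% ± 0.573 of it in Vector, 56.0% ± 6.80 in EGR1, 18.4% ± 1.83 in Mock and 18.9% ± 1.16 in EGR1_KO libraries. JUN held 10.2%, 9.51%, 29.6% and 21.4%, and JUND 48.9%, 34.5%, 52.0% and 59.8%. JUND was the larger share in all groups but EGR1, where JUNB exceeded it in each of the 3 libraries. These shares were computed from FPKM as deposited, and JUND and JUNB have the highest GC content of the 10 genes.

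**Figure D4:**
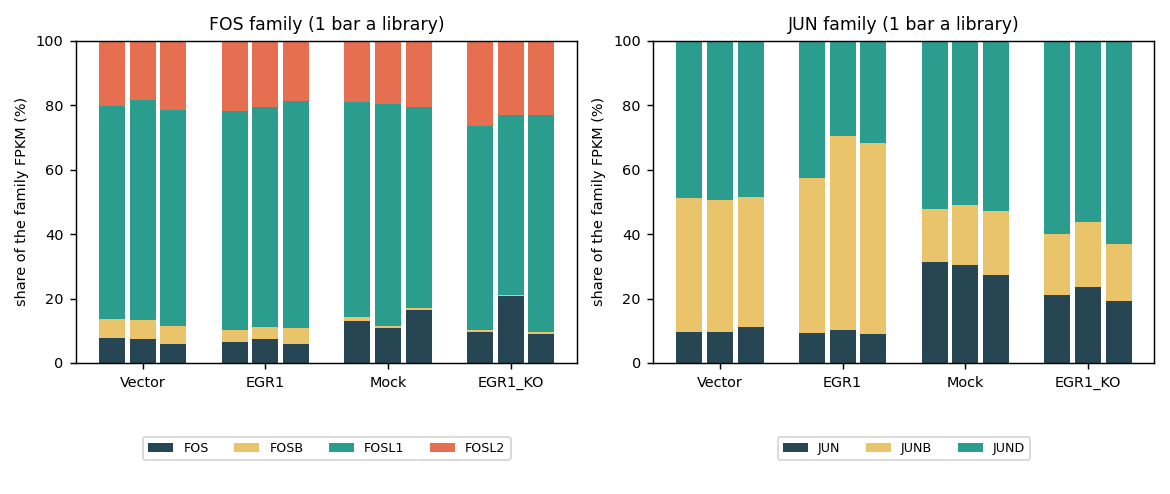
Share of the summed FPKM of the FOS family (left) and the JUN family (right) held by each gene (vertical axes, %), with 1 stacked bar per library in replicate order within each group. FOSL1 takes the largest part of every FOS family bar, and JUNB takes 48.2% to 60.5% of the JUN family in EGR1 libraries and 16.4% to 20.0% in Mock libraries.

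Some libraries of a group stood above the others for immediate early genes outside the 10 members. In EGR1_KO replicate 2, FOS (15.7 FPKM) and EGR1 (50.3) were both at their highest of the group, together with 13 of 24 other immediate early genes with a mean of at least 1 FPKM (54.2%), against 33.0% of all genes. In EGR1 replicate 1, 18 of 25 other immediate early genes were at their highest (72%), against 33.8% of all genes, and JUND was as well. The excess there was small for most, for example 1.12-fold over the mean of the other two libraries for DUSP1, an ERK and JNK phosphatase, and 1.66-fold for IER5L. Of the members, 4 of 10 (40%) were highest in EGR1 replicate 1, and 4 of 9 (44.4%) in each of EGR1_KO replicates 2 and 3.

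The other basic leucine zipper genes that pair with AP-1 or resemble it (the BATF, MAF, JDP2 and ATF2 group) numbered 13, of which 8 were tested in PLC/PRF5. Of these, 5 were higher and 0 lower with EGR1, beside 19.2% and 10.4% of all genes tested. Their median log2 fold change was 0.41, beside 0.09 over all genes tested. MAFF, a small MAF protein without an activation domain, rose by 0.63 from 8.82 to 14.1 FPKM, and ATF2, a JUN partner, rose by 0.61 (0.22 after the correction). After the correction 5 were higher and 0 lower, beside 16.7% and 18.1% of all genes. After quantile normalization 5 were higher and 1 lower. In MHCC97H 4 of 9 were higher and 1 lower in EGR1_KO libraries, beside 34.8% and 31.5% of all genes tested. But 1 was higher and 5 lower after the correction, beside 24.6% and 22.4%. MAFK rose by 0.83 and ATF2 fell by 1.02 on the log2 scale, 0.22 and -0.31 after the correction, and BATF, which rose by 0.60 as deposited, differed by -0.05 after the correction. Between the control groups MAFG, at 8.84 in Vector and 47.0 in Mock, was higher in MHCC97H, and MAFK, at 55.7 and 7.42, was lower.

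Of 30 other immediate early genes, 24 were tested in PLC/PRF5, and 9 were higher and 3 lower with EGR1 (19.2% and 10.4% of all genes tested). CCN1, a secreted matricellular protein, rose from 41.1 to 102 FPKM (log2 fold change 1.29, adjusted p = 2.06e-05). GADD45A, a growth arrest gene, rose by 1.01. IER5L fell by 0.85 and ZFP36, an AU-rich element binding protein that speeds the decay of such mRNAs, fell by 0.37. In MHCC97H 10 of 25 were higher and 5 lower as deposited (34.8% and 31.5% of all genes tested). After the correction 6 were higher and 8 lower (24.6% and 22.4% of all genes). IER5L rose from 28.96 to 83.5 FPKM (log2 1.497, and 0.84 after the correction) and ZFP36 rose by 1.03 (0.49 after the correction), whereas SGK1 and KLF10 fell by 1.01 and 0.75. Between the control groups 15 of 26 were lower in MHCC97H and 9 higher, beside 40.9% and 38.8% of all genes tested. Their median was -0.92, beside -0.02 over all genes tested. DUSP1 was at 169 FPKM in Vector and 6.56 in Mock and CCN1 at 41.1 and 0.970, while TRIB1 was at 15.0 and 80.0. FOS, JUN, ATF3 and EGR1, which were higher in MHCC97H, thus stood among genes of the same kind that differed in either direction.

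The kinases and factors upstream of these genes numbered 19, all of them tested. In PLC/PRF5 2 were higher and 2 lower with EGR1 (19.2% and 10.4% of all genes tested). RPS6KA3, which encodes the kinase RSK2, rose by 0.72 (0.37 after the correction), and MAP2K2 and MAPK3, which encode MEK2 and ERK1, fell by 0.47 and 0.40. CREB1 rose by 0.46 as deposited and differed by -0.04 after the correction. In EGR1_KO libraries 8 were higher and 9 lower (34.8% and 31.5% of all genes tested), and 3 and 4 after the correction (24.6% and 22.4%). MAPK3 and MAP2K2 rose by 1.08 and 0.96 as deposited and by 0.41 and 0.21 after the correction, and MRTFB, a serum response factor coactivator, fell by 0.80 (-0.40 after the correction). MAPK8, which encodes JNK1, fell by 0.84 as deposited but did not pass after the correction. Serum response factor itself, SRF, was lower in Mock than in Vector, at 6.29 and 16.3 FPKM, whereas ELK3, one of its partners, was higher, at 19.9 and 4.58.

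Of 20 genes described in textbooks as AP-1 targets, 12 were tested in PLC/PRF5, and 7 of the 12 were higher with EGR1 and 0 lower (19.2% and 10.4% of all genes tested). Their median was 0.51, beside 0.09 over all genes. The count was the same after the correction and after scaling to a common total, and 6 and 0 after quantile normalization. TIMP1, an inhibitor of matrix metalloproteinases, rose from 8.95 to 61.3 FPKM (log2 fold change 2.65, adjusted p = 1.44e-06). LIF, a cytokine, rose from 0.422 to 2.58 FPKM. LIF and CD44, at 0.831 in Vector and 2.56 in EGR1 libraries, reached the required mean of 1 FPKM only through the EGR1 libraries. They could be tested only because they were high there, so their calls add no support to the count or the median. In EGR1_KO libraries 5 of 15 were higher and 4 lower as deposited (34.8% and 31.5% of all genes tested). The counts were 4 and 5 after the correction (24.6% and 22.4%), and 4 and 8 after scaling to a common total. HMOX1, the heme-degrading enzyme, rose from 111 to 295 FPKM (log2 1.41, and 0.85 after the correction) and LIF rose by 0.92 (0.52 after the correction), whereas PLAU, the urokinase gene, and EDN1, the endothelin gene, fell by 0.96 and 0.91. Between the control groups SPP1 (osteopontin) and CD44 were higher in MHCC97H, at 261.5 and 49.7 FPKM against 0.0264 and 0.831. CXCL8 and AREG were lower, at 2.47 and 6.23 against 55.0 and 53.7 FPKM.

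MYC acts as a dimer with MAX, and MXD proteins and MXI1 compete for MAX. In PLC/PRF5, 1 of 9 tested partners and antagonists was higher with EGR1 and 3 were lower (19.2% and 10.4% of all genes tested). The 3 included MXI1 and MXD4, with falls of 0.49 each. MGA, a MAX partner that represses, rose by 0.55 (0.25 after the correction). In EGR1_KO libraries 5 were higher and 3 lower as deposited (34.8% and 31.5% of all genes tested), and 3 and 2 after the correction (24.6% and 22.4%). MXD3 and MXD4 rose by 1.35 and 0.99, and by 0.65 and 0.39 after the correction, and MXI1 fell from 12.8 to 5.79 FPKM. MXD1 fell by 0.63 as deposited and did not pass after the correction. Of 15 described MYC targets, 3 were higher and 0 lower with EGR1, beside the same 19.2% and 10.4% of all genes. The counts were 6 and 0 after the correction (16.7% and 18.1% of all genes), 5 and 0 after quantile normalization, and 3 and 0 after scaling to a common total. NOP58 and GNL3, nucleolar proteins, rose by 0.95 and 0.65. In EGR1_KO libraries 7 of these targets were higher and 4 lower as deposited (34.8% and 31.5% of all genes tested). After the correction 4 were higher and 7 lower (24.6% and 22.4%). CAD, the pyrimidine synthesis enzyme, and RCC1, a chromatin-bound exchange factor, rose by 0.83 and 0.82 (0.47 and 0.54 after the correction), and NOP58 and GNL3 fell by 0.77 and 0.68 (-0.40 and -0.45 after the correction). Of the 15 targets, 7 were higher and 7 lower in Mock than in Vector (38.8% and 40.9% of all genes tested). After the correction 6 were higher and 5 lower (39.5% and 42.0%). ODC1, the first enzyme of polyamine synthesis, was at 322 in Vector and 51.1 in Mock, and CDK4 at 82.0 and 142 FPKM.

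Proteins that bind AU-rich elements numbered 8, all of them tested. With EGR1, 2 were higher and 2 lower (19.2% and 10.4% of all genes tested). TIA1 and TIAL1, which restrain translation, were up by 0.81 and 0.53. ZFP36 and ELAVL1, a stabilising protein, were down by 0.37 and 0.27. After the correction TIAL1 was at 0.22 and ELAVL1 at -0.40, and the rise of TIA1 did not pass (0.40, adjusted p = 0.0503). In EGR1_KO libraries 4 were higher and 2 lower (34.8% and 31.5% of all genes tested). ZFP36 and KHSRP, both decay factors, were up by 1.03 and 0.76, and TIA1 and TIAL1 were down by 1.22 and 0.73. After the correction ZFP36 was at 0.49, KHSRP at 0.25 and TIA1 at -0.49, and the fall of TIAL1 did not pass (-0.13, adjusted p = 0.156). Between the control groups ZFP36L1 was higher in MHCC97H, at 71.5 against 14.9 FPKM, and ZFP36 was lower, at 18.1 against 56.1.

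The genes whose levels ran most like 4 of the members over the 12 libraries were found by Pearson's r of log2(FPKM + 1) among 11447 genes. They were MUC20 (0.980), ACCS (0.978) and AKR1E2 (0.975) for FOS, and VSIG10 (0.993), TCF7L1 (0.992) and TSHZ1 (0.991) for JUN. They were KIZ (0.954), CCDC77 (0.936) and RHEBL1 (0.926) for ATF3, and AKR1C1, CRACR2B and CD9 (all 0.998) for MYC. The libraries came from only 2 lines, so these values mostly reflect which genes differed between the lines as the member did.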

How the data were processed

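Total RNA of 12 libraries was purified with oligo(dT) beads, normalised with duplex-specific nuclease and sequenced by Illumina NovaSeq. The authors deposited FPKM per gene name, made with StringTie on hg38 per the submitters' processing notes. The aligner and annotation are not given in the sources used here. FPKM carry no read depth, and a nuclease treatment can compress abundant transcripts.

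Values were taken as log2(FPKM + 1), so fold changes of low genes are understated. Each comparison was fitted alone by limma 3.58.1 in trend mode (R 4.3.3), keeping genes whose mean over its 6 libraries reached 1 FPKM. A gene below that mean in a group can pass through the other group alone. LIF, CD44, NFKBIZ and MYCL did so in PLC/PRF5 and SGK1 in MHCC97H, and such calls add no support to the count of a list. All p-values are 2-sided, adjusted by Benjamini-Hochberg over every gene tested, and called below 0.05. The smallest p an exact permutation test of 3 against 3 allows is 0.1. For the correction, splines (5 degrees of freedom each) of transcript GC content and log length were fitted to the deviations of a library from the gene means and subtracted. GENCODE 29 supplied these for 19798 of 19932 names (99.3%). The fits were tested on simulated data.

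The members and lists were chosen with earlier results of these data known. All 10 members and EGR1 are named. From each list and comparison up to 2 rises and 2 falls past the threshold, with groups that did not overlap, were eligible to be named. Promoter sequences came from RefSeq. Python 3.11.15 and matplotlib 3.10.9 drew the plots. The alternatives are given in the closing section.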

Additional observations from a re-analysis of the deposited data

How the results depend on the processing

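Of 594 values recomputed under the alternatives, 529 kept their direction and side of the threshold (for counts, stayed within 1.5 times), 24 lost a call, 11 gained one, 19 changed sign and 11 counts moved further. Of the changes of sign, 12 came with the GC and length correction, and 7 of these were of values called before or after it. With the correction FOSL1 became -0.062, JUNB -0.082, IER2 -0.30 and JUN -0.25 in MHCC97H, and JUND became 0.17 and IER2 0.10 between the control groups, each with and without the replicate block. JUN passed with the block (adjusted p = 0.0351) and not without it (adjusted p = 0.0618). The other 7 were of values near 0 that were called in neither form. In PLC/PRF5 FOSB became -0.010 after scaling to a common total and -0.11 after quantile normalization, and ranged from -0.081 to 0.052 with a library left out. In MHCC97H JUN became -0.054 after quantile normalization, and MYC ranged from -0.028 to 0.026 with a library left out. In PLC/PRF5 the members called were 4, and 2 with all genes above 0 FPKM, 2 after quantile normalization, 1 at an adjusted p under 0.01 and 1 to 4 with a library left out. All genes called there were 3457, and 1468 at that stricter threshold and 1944 to 4007 with a library left out. The low values came without EGR1 replicate 2 (1944), EGR1 replicate 3 (2213) and Vector replicate 3 (2240). In MHCC97H and between the control groups the members called were 4 to 5 and 8 to 9 with a library left out. The share of calls that were higher in PLC/PRF5 was 64.8%, and 46.3% after quantile normalization and 47.9% after the correction. In MHCC97H it was 52.5%, and 41.6% after scaling to a common total, which moved the median of all genes from 0.02 to -0.11.

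The deviations of same-numbered libraries correlated at r from -0.132 to 0.136 in PLC/PRF5 and from -0.393 to -0.00823 between the control groups. In MHCC97H, r was 0.0317, 0.0302 and 0.467 for replicates 1, 2 and 3. The means with the other numbers were -0.0134, -0.0059 and -0.242. The labels do not say whether the numbers pair the samples, and these values do not settle it for MHCC97H. With the replicate block the call of JUNB in PLC/PRF5 was lost (adjusted p = 0.0617), and all genes called were 3253, 7987 and 9249 in the 3 comparisons, against 3457, 7671 and 9607 without it. FOSL1 in PLC/PRF5 and FOSL2 in MHCC97H were called in all 17 settings. FOSL2 in PLC/PRF5 was lost after quantile normalization (adjusted p = 0.123), MYC in PLC/PRF5 passed when all 12 libraries were fitted together (adjusted p = 0.0357), and MYC in MHCC97H passed at -0.34 after quantile normalization. The causes were not tested. Without read depth, low genes such as FOS and FOSB in PLC/PRF5 have an unknown counting error.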
